A study of Mus musculus with 12 samples.

Results

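Calcium handling genes of the sarcoplasmic reticulum were compared between the hearts of mice with and without cardiomyocyte CYB5R3, a reductase that transfers electrons from NADH. The 10 genes were taken by symbol from a list of calcium release, reuptake, buffering and exchange genes (Ryr2, Atp2a2, Pln, Sln, Casq2, Slc8a1, Cacna1c, Camk2d, Trdn and Jph2), and all 10 were found among the 53700 genes counted. Total RNA was sequenced from the heart of each of 12 mice, 6 in the ac-WT group and 6 in the ac-CYB5R3-KO group, with stranded libraries. The ac-WT mice had 2 wild-type Cyb5r3 alleles (CYB5R3wt/wt) and the ac-CYB5R3-KO mice had 2 floxed alleles (CYB5R3fl/fl). Both groups carried Myh6-CreERT2, in which the promoter of a cardiomyocyte myosin gene drives a Cre that tamoxifen activates, so the controls shared the transgene and the drug. All mice were male, were 10 to 13 weeks old at the first injection, and received tamoxifen at 33 mg/kg/d on 5 days. Hearts were taken 5 days after tamoxifen.

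In a cardiomyocyte, each beat begins when calcium enters through the L-type channel and opens the ryanodine receptor of the sarcoplasmic reticulum, which releases the stored calcium that drives contraction. Relaxation follows when the SERCA2 pump returns calcium to the store, under the brake of phospholamban or, in atrial muscle, sarcolipin, and when the sodium/calcium exchanger carries calcium out of the cell. In the store, calsequestrin holds calcium close to the release channel, triadin anchors calsequestrin there, and junctophilin keeps the store beside the surface membrane.

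Cyb5r3, the deleted gene, had 81.9 to 185.5 CPM (read counts scaled by the TMM library size) in ac-WT hearts and 42.1 to 67.4 CPM in ac-CYB5R3-KO hearts. The groups did not overlap, and the difference of -1.22 on the log2 scale (SE 0.191) had an adjusted p of 0.045 by the quasi-likelihood test of edgeR. The value stayed between -1.49 and -1.03 in the 21 alternatives run, while the adjusted p ran from 1.36e-06 to 0.315 and was above 0.05 with limma-voom, with total counts, with the replicate block and in 7 of 12 fits with 1 mouse left out. Total counts were between 43393183 and 53754284 per library, of which mitochondrial genes took 24.0% to 35.3%. The hearts of ac-WT mice 2 and 3 stood apart, with scaling factors of 0.570 and 0.723 where the other 10 libraries had 0.988 to 1.22. Such low factors raise every CPM value of these hearts above its value by total counts alone, the marker sums below included. The summed level of 12 cardiomyocyte markers was 42510 CPM in ac-WT mouse 2 and 37780 CPM in ac-WT mouse 3, the upper end of an ac-WT range that began at 21760 CPM, and it was 17320 to 29840 CPM in ac-CYB5R3-KO hearts. All 12 cardiomyocyte markers were present. Although the labels name whole hearts, some atrial markers were near 0, while others were detected. Of 12 atrial markers, Bmp10 (at most 3 reads in any library) and Mybphl (at most 9) were under 1 CPM in every heart, and Myl7, the atrial myosin light chain, had 0.196 to 2.00 CPM where the ventricular Myl2 had 2270 to 13670 CPM. Sbk2 and Sbk3 reached 2.62 and 3.35 CPM, and Myl4, Dkk3, Stard10, Kcnj3, Kcnj5 and Kcna5 lay between 3.46 and 40.7 CPM. Nppa, which the ventricle can also express, had 405 to 1616 CPM. The 12 together summed to 497 to 1071 CPM in ac-WT and 510 to 1711 CPM in ac-CYB5R3-KO hearts.

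The stretch of 250 bases before the transcription start is shown for 4 of the genes, Pln, Casq2, Jph2 and Ryr2, because Casq2 with Jph2, and Pln with Atp2a2, were among the 4 pairs that varied most closely together between hearts of a group, and Jph2 and Ryr2 entered a ratio that is described with the results. The sequences are from RefSeq (build GRCm38.p6), which gave a start for 7 of the 10 genes (not Atp2a2, Sln or Trdn); Jph2 has a pair of overlapping starts there, and the first is shown. Capitals mark an E-box (CANNTG), a GATA motif (GATA, or TATC on the other strand), a GC box (GGGCGG, or CCGCCC on the other strand) or a TATA box (TATAAA).
Pln, chr10:53337436-53337685, plus strand: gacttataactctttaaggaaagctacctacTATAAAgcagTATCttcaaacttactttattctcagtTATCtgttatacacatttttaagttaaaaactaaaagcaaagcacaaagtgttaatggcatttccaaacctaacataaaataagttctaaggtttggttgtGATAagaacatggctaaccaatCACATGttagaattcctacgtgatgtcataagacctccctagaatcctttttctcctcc
Casq2, chr3:102086165-102086414, plus strand: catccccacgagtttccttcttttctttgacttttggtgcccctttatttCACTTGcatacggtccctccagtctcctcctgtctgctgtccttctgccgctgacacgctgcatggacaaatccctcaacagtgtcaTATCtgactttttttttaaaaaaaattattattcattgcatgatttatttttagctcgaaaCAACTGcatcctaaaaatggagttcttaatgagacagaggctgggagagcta
Jph2, chr2:163397994-163398243, minus strand: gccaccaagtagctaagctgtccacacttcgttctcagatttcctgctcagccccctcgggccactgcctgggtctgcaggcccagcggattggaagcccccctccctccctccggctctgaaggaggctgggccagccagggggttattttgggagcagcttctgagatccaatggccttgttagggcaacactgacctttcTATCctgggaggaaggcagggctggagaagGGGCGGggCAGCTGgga
Ryr2, chr13:12106946-12107195, minus strand: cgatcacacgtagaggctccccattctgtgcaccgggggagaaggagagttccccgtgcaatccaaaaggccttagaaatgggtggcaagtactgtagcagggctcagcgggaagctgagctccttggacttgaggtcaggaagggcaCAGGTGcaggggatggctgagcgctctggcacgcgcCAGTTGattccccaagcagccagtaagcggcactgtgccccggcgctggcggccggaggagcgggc

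Pln was the AT-rich member of the 4, with a GC content of 32.8% against 41.6% for Casq2, 62.0% for Jph2 and 63.2% for Ryr2. Its window held 3 GATA motifs, 1 E-box and the 1 TATA box found in the windows of these genes. Casq2 held 2 E-boxes and 1 GATA motif, Jph2 held 1 E-box, 1 GATA motif and 1 GC box, and Ryr2 held 2 E-boxes alone. Over 32851 mouse promoters of the same length, searched on both strands, an E-box was found in 66.2%, a GATA motif in 53.6%, a GC box in 32.7% and a TATA box in 12.4%, so most of these matches are common. No marked motif overlapped another in the windows shown. The letters of a MEF2 site (in 0.508% of promoters) and of a CArG box (in 1.47%) were not in the windows of the 7 genes.

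Per kilobase of exon, which is the scale on which levels of different genes were compared, Atp2a2 had the highest level of the 10, with 407.5 ± 164 CPM per kb in ac-WT and 262 ± 58.5 in ac-CYB5R3-KO hearts (SD, n = 6 each). Pln followed with 199 ± 63.0 and 161 ± 66.5 CPM per kb, and Casq2 with 190 ± 43.7 and 191 ± 36.7. Atp2a2 was above Pln in each of the 12 hearts. Pln and Casq2 were not ordered, since Pln was the higher in 4 of 6 ac-WT and in 2 of 6 ac-CYB5R3-KO hearts. Slc8a1 stood below them, with 79.1 ± 23.7 and 86.4 ± 21.5 CPM per kb. Trdn (44.4 ± 9.98 and 40.9 ± 5.91) and Jph2 (35.5 ± 11.6 and 27.6 ± 3.98) came next, and Trdn was above Jph2 in every heart. The 3 large genes were lowest among those detected. Ryr2, whose exons cover 18191 bases, had 16.3 ± 2.58 and 16.8 ± 2.76 CPM per kb, Cacna1c had 10.7 ± 5.95 and 7.60 ± 0.997, and Camk2d had 5.31 ± 0.604 and 5.94 ± 1.07. Ryr2 was above Cacna1c in 5 of 6 ac-WT and 6 of 6 ac-CYB5R3-KO hearts, and Cacna1c was above Camk2d in 6 of 6 and 5 of 6. A length that counts every annotated exon understates the level of a gene whose hearts use a shorter transcript. The annotation used for counting is not known, and longer exons there than in the lengths used here would overstate a level. The 10 genes together took 0.332% to 0.423% of all counts in ac-WT and 0.310% to 0.506% in ac-CYB5R3-KO libraries.

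**Figure D1:**
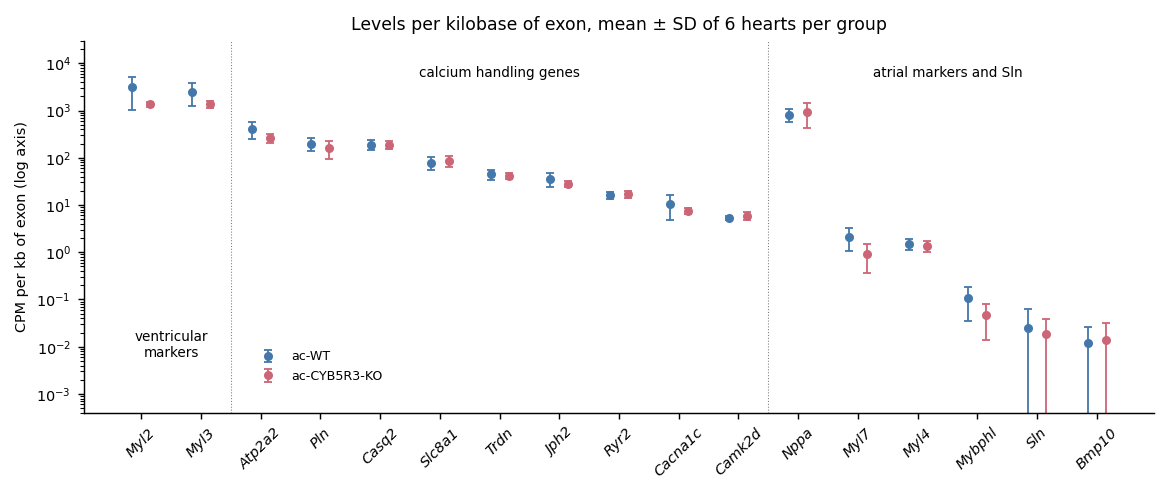
Level of each gene in CPM per kilobase of exon on a log axis, as the mean of 6 hearts per group with bars of 1 SD, for ventricular markers, the calcium handling genes, and atrial markers with Sln. Atp2a2 lies at 407.5 CPM per kb in ac-WT hearts and Camk2d at 5.31, while Sln and Bmp10 lie under 0.1, and bars that reach 0 run off the lower edge of the log axis.

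Close relatives of these genes that serve other tissues were low in these hearts. Ryr1 and Ryr3, the other ryanodine receptors, had at most 0.699 and 0.423 CPM, and Atp2a1, the pump of fast skeletal muscle, had at most 0.150 CPM. The relatives with a higher level were Atp2a3 (5.82 to 22.6 CPM), Casq1 (2.997 to 7.72), Jph1 (3.52 to 8.41), Camk2a (6.78 to 28.2), Camk2b (2.16 to 6.66) and Camk2g (15.9 to 32.8). Cacna1d reached 3.30 CPM, Slc8a2 1.55 CPM, and Slc8a3, Jph3 and Jph4 at most 0.344 CPM. Of these relatives 10 were tested, and none had an adjusted p under 0.05 in edgeR, DESeq2 or limma-voom. In edgeR, Camk2a and Camk2b, 2 forms of the calcium/calmodulin kinase, were lower at an unadjusted p of 0.0219 and 0.0194, which became 0.393 and 0.133 without ac-WT mice 2 and 3.

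The comparison of ac-CYB5R3-KO with ac-WT hearts asked which transcripts differed 5 days after tamoxifen. Of the 10 genes, 9 passed the filter on low counts and Sln did not. None of the 9 had an adjusted p under 0.05 in edgeR, DESeq2 or limma-voom, where 0.101% of the 17847 genes tested did in edgeR. At an unadjusted p under 0.05, Atp2a2 was the 1 gene of 9 in each of the 3 tools, against 14.6% of all genes tested in edgeR. Log2 fold changes were below 0 for 5 genes and above 0 for 4, with a median of -0.12 beside -0.01 over all genes tested. The groups overlapped for each of the 9 genes, where 1.55% of all genes tested had groups that did not overlap. In RNA from heart tissue, fewer cardiomyocytes and less RNA per cardiomyocyte cannot be told apart.

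**Figure D2:**
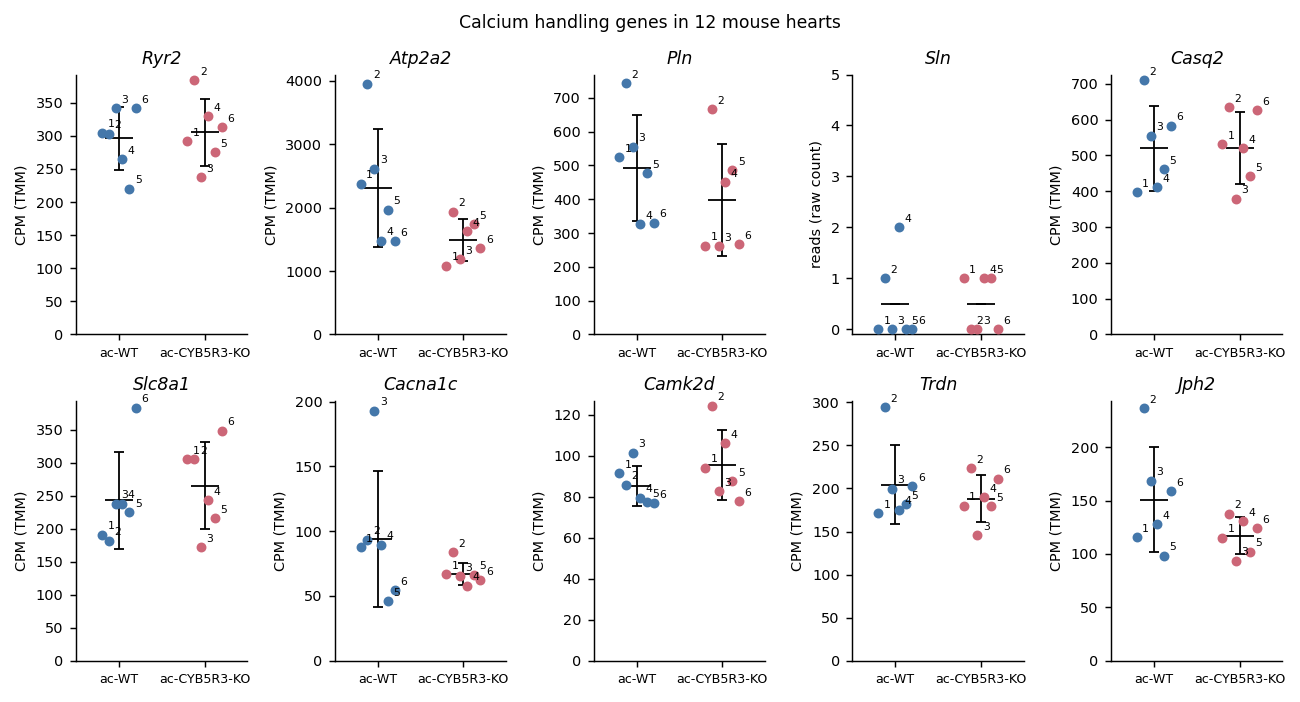
Normalized level in CPM (raw reads for Sln) of the 10 genes in each heart, with the mean and bars of 1 SD per group; the small figures are mouse numbers. Every ac-CYB5R3-KO heart lies below the ac-WT median for Atp2a2, Cacna1c and Jph2, and Sln has at most 2 reads in a library.

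Among the genes of reuptake, Atp2a2 (ENSMUSG00000029467, chromosome 5), the SERCA2 pump, had 2377, 3956, 2614, 1480, 1970 and 1475 CPM in ac-WT mice 1 to 6 and 1084, 1935, 1190, 1624, 1739 and 1356 CPM in ac-CYB5R3-KO mice 1 to 6. All 6 ac-CYB5R3-KO hearts were below the ac-WT median of 2174 CPM and 3 were below the lowest ac-WT heart, while the other 3 lay within the ac-WT range. The ac-CYB5R3-KO level was 64.4% of the ac-WT level, a log2 fold change of -0.64 (SE 0.250, 95% interval -1.17 to -0.10), with an unadjusted p of 0.0235 and an adjusted p of 0.267 in edgeR. The heart of ac-WT mouse 2 had the highest Atp2a2 CPM of the 12 after TMM scaling, but by total counts it was below ac-WT mouse 1. Without ac-WT mice 2 and 3 the log2 fold change was -0.28 with an unadjusted p of 0.178. Leaving out each mouse in turn gave -0.74 to -0.40, and the unadjusted p was above 0.05 without ac-WT mouse 2, without ac-CYB5R3-KO mouse 1 and without ac-CYB5R3-KO mouse 3, reaching 0.0655. With 1 surrogate variable the value was -0.18 (unadjusted p 0.365), and with scaling by total counts it was -0.26 (unadjusted p 0.138). The value was below 0 in each of the 21 alternatives run, with adjusted p from 0.144 to 0.898.

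Most general cardiomyocyte markers had a log2 fold change of the same sign as Atp2a2, but few of them passed an unadjusted threshold. Of 12 general cardiomyocyte markers, 11 had a log2 fold change below 0, as did 9139 of the 17847 genes tested. Myh6 (-0.75) and Tnni3 (-1.01) were lower at an unadjusted p under 0.05, where 9.73% of all genes tested were lower in edgeR. Of 6 ventricular markers, 4 were lower at that threshold, with a summed level of 5606 to 20700 CPM in ac-WT and 4254 to 6190 CPM in ac-CYB5R3-KO hearts. The highest of these sums was that of ac-WT mouse 2, and ac-WT mouse 3 had 13390 CPM. Summed fibroblast markers were 1557 to 7280 CPM in ac-WT and 3770 to 5848 CPM in ac-CYB5R3-KO hearts, lowest in ac-WT mice 2 and 3, and none of the 8 had an unadjusted p under 0.05. Their part in the Atp2a2 difference was not tested.

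Pln (ENSMUSG00000038583, chromosome 10), the phospholamban that restrains the pump, had 326, 501 and 743 CPM as the lowest, median and highest value of ac-WT hearts and 261, 359 and 665.5 CPM in ac-CYB5R3-KO hearts. The lowest 3 ac-CYB5R3-KO hearts, mice 1, 3 and 6, were below every ac-WT heart, but mouse 2 was above 5 of the 6. The log2 fold change was -0.31 (SE 0.273, 95% interval -0.89 to 0.28; adjusted p = 0.608 in edgeR), an interval that holds 0 and also a level of 53.9% of ac-WT. It was -0.14 without ac-WT mouse 2, -0.04 without ac-WT mice 2 and 3, and -0.51 without ac-CYB5R3-KO mouse 2.

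Sln (ENSMUSG00000042045, chromosome 9), which encodes sarcolipin, the inhibitor of the pump found in atrial muscle of the mouse, was hardly detected. The 12 libraries held 6 Sln reads in all, 3 in each group, spread over 5 libraries with at most 2 in 1 library. A limit of 3 reads per library corresponds to 0.0508 to 0.105 CPM, and no library passed it. No fold is given between groups that both lie at that limit, which covers counting error only. Of the 12 atrial markers in the same libraries, Bmp10 and Mybphl were also under 1 CPM in every heart. The other 10 passed 1 CPM in at least 1 heart, though Myl7 reached no more than 2.00, Sbk2 2.62 and Sbk3 3.35 CPM.

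Of the genes of release and the junction, Ryr2 (ENSMUSG00000021313, chromosome 13), the release channel, had 220.1, 304 and 342 CPM in ac-WT hearts (lowest, median and highest) and 238, 302 and 384.5 CPM in ac-CYB5R3-KO hearts. The groups covered nearly the same range, and 3 of 6 ac-CYB5R3-KO hearts were on each side of the ac-WT median. The log2 fold change of 0.04 (SE 0.142) had a 95% interval of -0.26 to 0.35, so that a level between 83.4% and 127% of ac-WT was within the error (adjusted p = 0.903 in edgeR).

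Casq2 (ENSMUSG00000027861, chromosome 3), the cardiac calsequestrin, had 397, 508 and 709 CPM in ac-WT and 378.5, 525 and 634 CPM in ac-CYB5R3-KO hearts. Its means were 519 ± 119.5 and 522 ± 100.5 CPM (SD, n = 6 each), and the log2 fold change of 0.01 (SE 0.175; adjusted p = 0.990 in edgeR) had an interval of -0.37 to 0.38. Trdn (ENSMUSG00000019787, chromosome 10), triadin, had 171.5, 191 and 294 CPM in ac-WT and 146, 185 and 223 CPM in ac-CYB5R3-KO hearts. The ac-WT heart at 294 CPM was that of mouse 2, and the other 5 reached no more than 202.5 CPM. The log2 fold change of Trdn was -0.12 (SE 0.149, 95% interval -0.44 to 0.20; adjusted p = 0.734 in edgeR), and it was 0.06 without ac-WT mice 2 and 3.

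Jph2 (ENSMUSG00000017817, chromosome 2), the junctophilin of the heart, had 98.2, 143 and 236 CPM in ac-WT and 93.7, 120 and 138 CPM in ac-CYB5R3-KO hearts. All 6 ac-CYB5R3-KO hearts were below the ac-WT median, and 1 was below the lowest ac-WT heart. The log2 fold change was -0.36 (SE 0.190, 95% interval -0.77 to 0.04; unadjusted p 0.0766 and adjusted p 0.393 in edgeR). The ac-WT value at 236 CPM was again that of mouse 2, and without ac-WT mice 2 and 3 the log2 fold change was -0.08 (unadjusted p 0.591).

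At the surface membrane, Cacna1c (ENSMUSG00000051331, chromosome 6), the pore of the L-type calcium channel, had 45.9, 88.6 and 193 CPM in ac-WT and 57.9, 66.01 and 83.6 CPM in ac-CYB5R3-KO hearts. The ac-WT hearts were far more spread, with an SD of 52.5 CPM against 8.79 CPM, and they held both the lowest and the highest value of the 12. All 6 ac-CYB5R3-KO hearts were below the ac-WT median, and the log2 fold change was -0.49 (SE 0.277, 95% interval -1.08 to 0.11; unadjusted p 0.1004 and adjusted p 0.431 in edgeR). Without ac-WT mouse 3, whose level was 193 CPM, it was -0.14, and without ac-WT mice 2 and 3 it was -0.04.

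Slc8a1 (ENSMUSG00000054640, chromosome 17), the sodium/calcium exchanger NCX1, had 182, 231.5 and 383 CPM in ac-WT and 172, 274 and 349 CPM in ac-CYB5R3-KO hearts. Its highest value was that of ac-WT mouse 6, and the other 5 ac-WT hearts did not exceed 238 CPM. The log2 fold change was 0.13 (SE 0.206, 95% interval -0.32 to 0.57; adjusted p = 0.793 in edgeR). With 1 mouse left out it ran from 0.03 (without ac-CYB5R3-KO mouse 6) to 0.31 (without ac-WT mouse 6).

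Camk2d (ENSMUSG00000053819, chromosome 3), the main cardiac form of the calcium/calmodulin kinase that phosphorylates Ryr2 and phospholamban, had 76.7, 82.6 and 101 CPM in ac-WT and 77.8, 90.8 and 124 CPM in ac-CYB5R3-KO hearts. Of the ac-CYB5R3-KO hearts, 5 were above the ac-WT median and 2 above every ac-WT heart. The log2 fold change was 0.16 (SE 0.126, 95% interval -0.11 to 0.43; adjusted p = 0.563 in edgeR). With 1 mouse left out it ran from 0.07 (without ac-CYB5R3-KO mouse 2) to 0.22 (without ac-WT mouse 3). With scaling by total counts in place of TMM, the median of all genes tested moved to 0.26, and Camk2d, at 0.44 on that scale (unadjusted p 0.0200 and 0.19 above the median), took the place of Atp2a2 (-0.26, unadjusted p 0.138 and 0.52 below the median) as the 1 gene under an unadjusted p of 0.05.

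**Figure D3:**
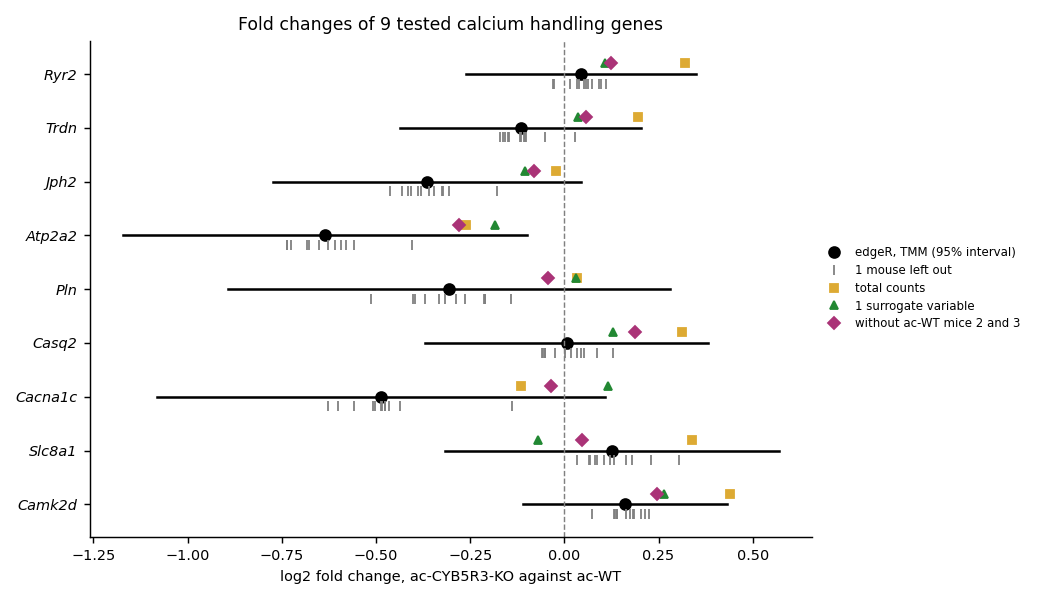
Log2 fold change of ac-CYB5R3-KO against ac-WT for the 9 genes tested, with 95% intervals as lines, values with 1 mouse left out as ticks, and 3 other settings as coloured marks. The interval leaves out 0 for Atp2a2 alone, and without ac-WT mice 2 and 3 its value moves from -0.64 to -0.28, Jph2 from -0.36 to -0.08 and Cacna1c from -0.49 to -0.04.

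Ratios of a pair of genes within one library do not depend on how libraries are scaled. Group differences in 5 ratios were tested by exact permutation of the group labels (two-sided, 924 divisions of the 12 hearts), and 0.00216 is the smallest p that this allows. The Jph2 to Ryr2 ratio sets the junctional protein beside the release channel. It was 0.381, 0.779, 0.493, 0.481, 0.446 and 0.465 in ac-WT mice 1 to 6 and stayed between 0.358 and 0.397 in ac-CYB5R3-KO mice. All 6 ac-CYB5R3-KO hearts were below the ac-WT median and 2 were below the lowest ac-WT heart, and their spread was narrow (SD 0.0647 on the log2 scale against 0.347). The difference was -0.36 on the log2 scale, a ratio 0.778-fold that of ac-WT, with an exact permutation p of 0.0108 and an adjusted p of 0.0541 over the 5 ratios, so it did not pass the correction. Without ac-WT mouse 2 it was -0.23 (exact permutation p 0.0108), and without ac-WT mice 2 and 3 it was -0.20 (exact permutation p 0.0238).

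The Ryr2 to Atp2a2 ratio, release channel against pump, had a mean of 0.143 in ac-WT hearts (range 0.0767 to 0.232) and 0.210 in ac-CYB5R3-KO hearts (range 0.158 to 0.269). All 6 ac-CYB5R3-KO hearts were above the ac-WT median, and 1 was above every ac-WT heart. The difference was 0.62 on the log2 scale, a 1.54-fold ratio, with an exact permutation p of 0.0303 and an adjusted p of 0.0758. Leaving out ac-WT mouse 2 gave 0.46 (exact permutation p 0.0649) and leaving out ac-WT mice 2 and 3 gave 0.41 (exact permutation p 0.114). The p was also above 0.05 without ac-CYB5R3-KO mouse 1 (0.0649) and without ac-CYB5R3-KO mouse 6 (0.0584), in the same exact permutation test.

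The remaining ratios were less separated. Pln to Atp2a2, the inhibitor against the pump it inhibits, was 0.188 to 0.242 in ac-WT and 0.197 to 0.344 in ac-CYB5R3-KO hearts, a log2 difference of 0.23 (exact permutation p 0.0909, adjusted 0.141). Of the ac-CYB5R3-KO hearts, 3 were above every ac-WT heart and 2 were below the ac-WT median. Slc8a1 to Atp2a2, extrusion against reuptake, was 0.0459 to 0.260 and 0.124 to 0.282, a log2 difference of 0.71 (exact permutation p 0.113, adjusted 0.141), and it was 0.34 without ac-WT mice 2 and 3. Casq2 to Ryr2 was 1.30 to 2.34 and 1.58 to 2.00, a log2 difference of -0.03 (exact permutation p 0.807).

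**Figure D4:**
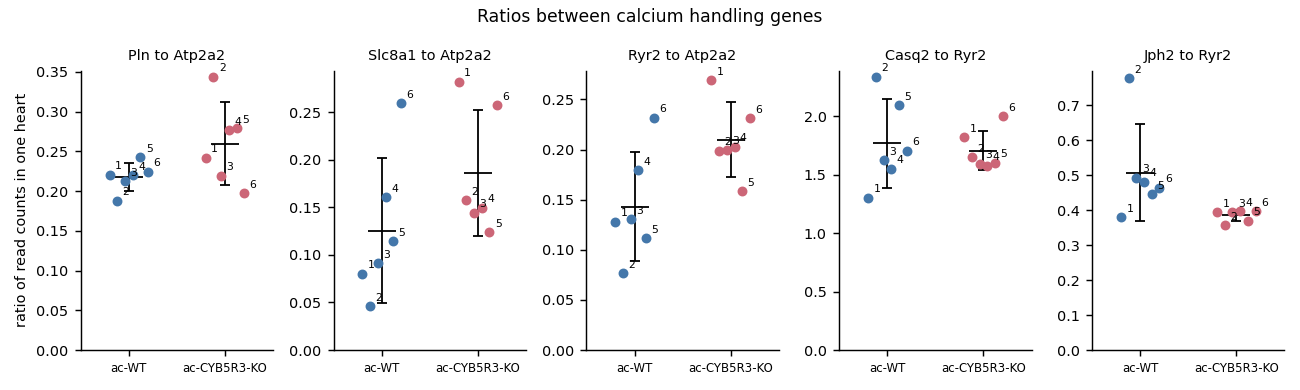
Ratios of read counts of a pair of genes in each heart, with the mean and bars of 1 SD per group and mouse numbers beside the points. The Jph2 to Ryr2 ratio of the 6 ac-CYB5R3-KO hearts lies between 0.358 and 0.397, and the ac-WT hearts run from 0.381 to 0.779.

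Between hearts of a group, some of the genes varied together. The correlation of log2 CPM after subtraction of the group mean was taken over the 12 libraries, as a description only, since the points share library scaling and cell makeup. Over 36 pairs its median was 0.440 and its range -0.415 to 0.926. Casq2 and Trdn had the highest value (r = 0.926, rho = 0.951), and Atp2a2 with Pln the next (r = 0.909, rho = 0.951). Trdn with Jph2 (r = 0.874) and Casq2 with Jph2 (r = 0.853) completed the 4 pairs above 0.8. Without ac-WT mice 2 and 3 these 4 pairs had r = 0.937, 0.935, 0.750 and 0.771. Ryr2 with Jph2 then had 0.911 in place of 0.706, and Slc8a1 with Casq2 0.938 in place of 0.509. Atp2a2 and Slc8a1 had the lowest value (r = -0.415).

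The genes most like each member by the same correlation, among all genes tested, were as follows. Those nearest to Atp2a2 were Dgat2 (r = 0.982), an enzyme of triglyceride synthesis, Tmem171 (0.979) and Rxrg (0.977), a nuclear receptor. Pln was nearest to Slc25a13 (0.993), the mitochondrial aspartate/glutamate carrier, Echdc3 (0.981) and Dnajc28 (0.978). Trdn was nearest to Timm23 (0.976), Stoml2 (0.968) and Immt (0.967), which encode proteins of the inner mitochondrial membrane. Mypn, which encodes the sarcomeric protein myopalladin, was among the 3 nearest to both Casq2 (0.962, with Mrpl46 at 0.965 and Klhl31 at 0.960) and Jph2 (0.954, with the cardiac and smooth muscle coactivator Myocd at 0.962 and Homer2 at 0.953). Ryr2 was nearest to Ppp1r12b (0.948), a subunit of myosin phosphatase, Kif1b (0.916) and Stx17 (0.891). For Slc8a1 they were Scfd2, Uba1 and Hcfc2 (0.911 to 0.942), for Camk2d Snupn, Kif21a and Nudt12 (0.912 to 0.935), and for Cacna1c Acad10, Svil and a gene without a symbol (0.964 to 0.980).

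A wider set of 102 genes in 8 lists by role in calcium handling set these results in their pathway. Of these, 99 were found and 94 tested, with a median log2 fold change of -0.03. None had an adjusted p under 0.05 in edgeR or limma-voom, and 2, Cacna1g (0.0469) and Srl (0.0477), had one in DESeq2. Over all alternatives the adjusted p ran from 0.0469 to 0.631 for Cacna1g and from 0.0477 to 0.630 for Srl. At an unadjusted p under 0.05 in edgeR, 14 were lower and 6 higher, which is 20 of 94 beside 9.73% lower and 4.91% higher of all genes tested. DESeq2 gave 20 genes at that threshold and limma-voom 14. With total counts the split was 4 lower and 11 higher, as against 367 lower and 1686 higher of all genes, so the share of lower genes depended on the scaling. Without ac-WT mice 2 and 3, 3 were lower and 5 higher.

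**Figure D5:**
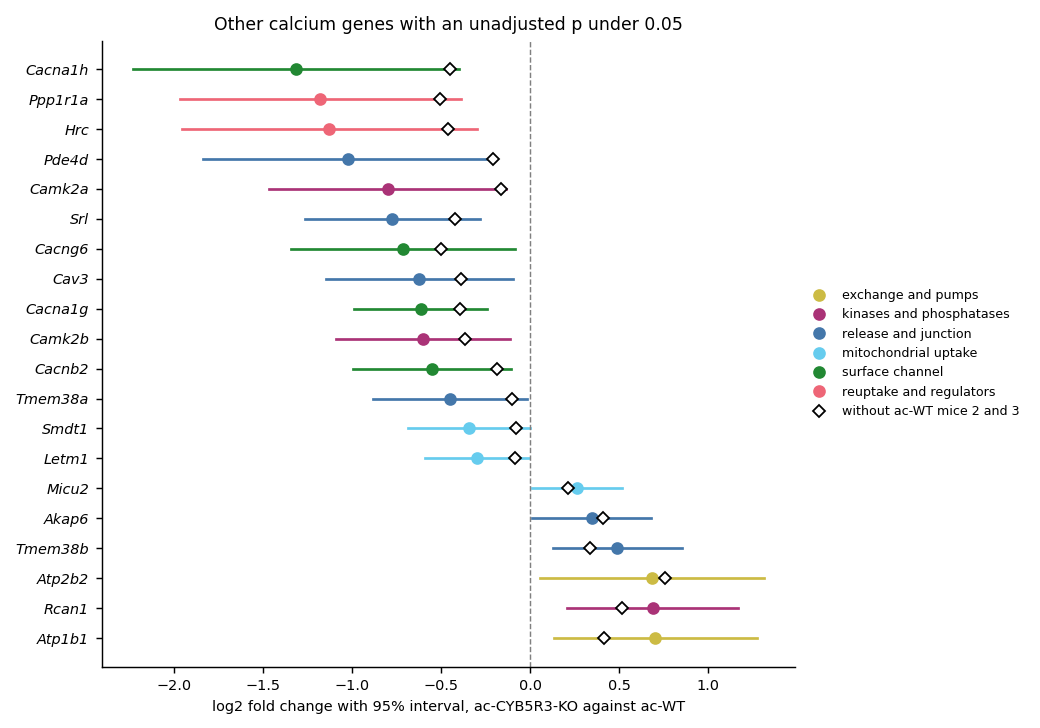
Log2 fold change of ac-CYB5R3-KO against ac-WT with 95% intervals for the 20 other calcium genes with an unadjusted p under 0.05, coloured by role, with the value without ac-WT mice 2 and 3 as open diamonds. The diamonds lie nearer to 0 for each of the 14 lower genes (Cacna1h moves from -1.31 to -0.45), while those of Atp2b2 and Akap6 lie further from it.

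In the release and junction list, 4 of 19 genes tested were lower and 2 higher at an unadjusted p under 0.05 in edgeR. The shares of all genes tested, 9.73% lower and 4.91% higher, stand beside this count and those of the lists that follow. Srl, sarcalumenin, a calcium-binding protein of the store, had 221, 326 and 524 CPM in ac-WT (lowest, median and highest) and 164, 203 and 297 CPM in ac-CYB5R3-KO hearts, and 5 of the 6 were below every ac-WT heart. Its log2 fold change was -0.77 (SE 0.228; unadjusted p 0.00452, adjusted p 0.188), and it kept an unadjusted p under 0.05 in each of the 12 fits with 1 mouse left out and without ac-WT mice 2 and 3 (-0.42, p 0.0408). The TRIC channels, which carry potassium across the membrane of the store, went opposite ways. Tmem38a, the form typical of muscle, had a log2 fold change of -0.45 (unadjusted p 0.0419, adjusted 0.322), and Tmem38b, the form found in most tissues, 0.49 (0.0114, adjusted 0.222). Tmem38a was -0.10 without ac-WT mice 2 and 3, and Tmem38b 0.34 (unadjusted p 0.0453). The others were Cav3, the muscle caveolin (-0.62, unadjusted p 0.0241), Pde4d, a cAMP phosphodiesterase (-1.02, 0.0176), and Akap6, a kinase anchor (0.35, 0.0438). Without ac-WT mice 2 and 3, Cav3 was -0.39 (unadjusted p 0.152), Pde4d -0.21 (0.381) and Akap6 0.41 (0.0345), and Pde4d was -0.03 with 1 surrogate variable (0.892).

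Among surface channels, 4 of 15 were lower and none higher. Cacna1g, a T-type calcium channel, had 6.71, 11.5 and 15.8 CPM in ac-WT and 6.05, 6.98 and 8.55 CPM in ac-CYB5R3-KO hearts, and all 6 were below the ac-WT median. Its log2 fold change of -0.61 (SE 0.175; unadjusted p 0.00352, adjusted p 0.184 in edgeR) had an unadjusted p under 0.05 in each fit with 1 mouse left out, and it was -0.39 without ac-WT mice 2 and 3 (unadjusted p 0.0268). Cacna1h, the other T-type channel of the heart, had -1.31 (0.00810), Cacnb2, the cardiac beta subunit of the L-type channel, -0.55 (0.0187), and Cacng6, a gamma subunit, -0.71 (0.0296), and without ac-WT mice 2 and 3 they were -0.45 (0.106), -0.19 (0.173) and -0.50 (0.143).

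In the reuptake list, 2 of 9 were lower. Hrc, a histidine-rich calcium-binding protein of the store, had 86.3, 184 and 510 CPM in ac-WT and 67.5, 92.5 and 156 CPM in ac-CYB5R3-KO hearts, with the highest value in ac-WT mouse 2, as for Atp2a2. Its log2 fold change was -1.13 (SE 0.385; unadjusted p 0.0113, adjusted p 0.222 in edgeR), and -0.46 without ac-WT mice 2 and 3 (unadjusted p 0.142). Ppp1r1a, an inhibitor of protein phosphatase 1, had a log2 fold change of -1.18 (unadjusted p 0.00645) at a low level, 0.433 to 1.82 CPM in ac-WT and 0.333 to 0.738 CPM in ac-CYB5R3-KO hearts, and it was -0.51 without ac-WT mice 2 and 3 (unadjusted p 0.0815).

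Exchange and pump genes had 2 of 10 higher and none lower. Atp1b1, the beta subunit of the sodium pump whose gradient drives the exchanger, had 44.3, 94.9 and 156.5 CPM in ac-WT and 109, 163 and 184 CPM in ac-CYB5R3-KO hearts, all 6 above the ac-WT median. Its log2 fold change was 0.70 (SE 0.265; unadjusted p 0.0192, adjusted p 0.254 in edgeR), and 0.42 without ac-WT mice 2 and 3 (unadjusted p 0.0478). Atp2b2, a calcium pump of the surface membrane, had at most 0.432 CPM in a heart, with a log2 fold change of 0.68 (unadjusted p 0.0353), and 0.76 without ac-WT mice 2 and 3 (0.0475).

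Of 16 kinase and phosphatase genes, 2 were lower, Camk2a (-0.80, unadjusted p 0.0219) and Camk2b (-0.60, 0.0194), and 1 was higher. Without ac-WT mice 2 and 3 the lower pair had -0.16 (unadjusted p 0.393) and -0.37 (0.133). The higher gene was Rcan1, a calcineurin regulator whose own transcription follows calcineurin activity, which had 60.5, 121 and 146 CPM in ac-WT and 128, 173 and 265 CPM in ac-CYB5R3-KO hearts. All 6 ac-CYB5R3-KO hearts were above the ac-WT median and 5 were above every ac-WT heart. Its log2 fold change was 0.69 (SE 0.224; unadjusted p 0.00829, adjusted p 0.211 in edgeR), with an unadjusted p under 0.05 in each fit with 1 mouse left out, and 0.52 without ac-WT mice 2 and 3 (unadjusted p 0.0227). In mitochondrial uptake, 2 of 9 were lower, Letm1 (-0.30, unadjusted p 0.0446) and Smdt1 (-0.34, 0.0492), the EMRE subunit of the uniporter, and 1 was higher, its regulator Micu2 (0.26, 0.0432). Without ac-WT mice 2 and 3 these were -0.08 (unadjusted p 0.406), -0.08 (0.399) and 0.21 (0.0699). None of 7 buffer genes and none of 9 genes of store-operated entry had an unadjusted p under 0.05 in edgeR.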

How the data were processed

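RNA of 12 mouse hearts was measured by RNA-Seq (unpaired reads). The deposited values are raw read counts per Ensembl gene, made by the authors without normalization or filter. The submitters' processing notes name STAR, featureCounts and GRCm39, whereas the methods name STAR and mm9. For this reason no gene coordinates beyond the chromosome are given, apart from those of the promoter windows, which are on GRCm38.p6. Versions, the annotation and the strand setting are not given in the sources used here. Symbols were found for 31027 of the 53700 genes (57.8%) and exon lengths come from GENCODE vM1. No column was left unused.

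Genes were kept by filterByExpr at a minimum count of 10. TMM factors and the quasi-likelihood test of edgeR 4.0.16 (R 4.3.3) were applied, two-sided, without covariates and with Benjamini-Hochberg adjustment over 17847 genes. CPM use the TMM library sizes. Standard errors were derived from the test statistic. The tests were checked on simulated counts. The coefficient of variation between mice was 26.5%, so the spread of mice, not depth, limited the precision except for genes with few reads. Correlations used log2(CPM + 0.1) and ratios used counts with 0.5 added. Of 6 planned ratios, Sln to Atp2a2 was not computed because Sln lay at the counting limit. Reads carried no molecular identifiers, so counting limits cover counting error only.

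Alternatives were DESeq2 1.42.0, limma-voom (limma 3.58.1), total counts, RLE factors, no filter, 10 counts in every library, a replicate block, 1 surrogate variable (sva 3.50.0), leaving out ac-WT mice 2 and 3, and leaving out each mouse. The genes, role lists and marker lists were chosen with earlier results of these data known. Genes named were the members, Cyb5r3, every role-list gene with an unadjusted p under 0.05 (at most 20), relatives of the members, the 3 tested genes most correlated with each member, and markers. Exons of Pln and Slc8a1 overlapped an opposite-strand gene over 24 and 8 bases.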

Additional observations from a re-analysis of the deposited data

Results flagged for a closer look

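Among 70 groups of 6 hearts examined for the members, the named calcium genes and the ratios, 7 held a heart far from the other 5. The groups share the same hearts and, for levels, the same library scaling, so no chance rate is set beside this number. The ac-WT mouse 2 was that heart for Trdn (294 CPM, others 171.5 to 202.5), for Tmem38a (281 CPM, others 122 to 168) and for the ratio of Jph2 to Ryr2 (0.779, others 0.381 to 0.493). The Cacna1c level of ac-WT mouse 3 was 193 CPM (others 45.9 to 93.4), and that of ac-CYB5R3-KO mouse 2 was 83.6 CPM (others 57.9 to 66.7). Slc8a1 was at 383 CPM in ac-WT mouse 6 (others 182 to 238). Ppp1r1a was at 0.738 CPM in ac-CYB5R3-KO mouse 1 (others 0.333 to 0.468).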

How the results depend on the processing

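Over all genes, the 18 genes with an adjusted p under 0.05 became 451 with DESeq2, 35 without a filter, 8 with total counts or RLE factors, 7 without ac-WT replicates 2 and 3, 3 with 1 surrogate variable and 2 with limma-voom, and 2 to 38 with 1 mouse left out. The 2614 genes at an unadjusted p under 0.05 became 1401 with the surrogate variable and 1461 without ac-WT replicates 2 and 3. The members at an adjusted p under 0.05 stayed at 0 under each alternative. The 1 member at an unadjusted p under 0.05 became 0 with the surrogate variable and without ac-WT replicates 2 and 3, and 0 to 3 with 1 mouse left out. The 14 lower calcium genes became 9 with limma-voom, 4 with total counts, 3 with the surrogate variable and 3 without ac-WT replicates 2 and 3, and 6 to 17 with 1 mouse left out. The 6 higher ones became 11 with total counts and 1 with the surrogate variable, and 3 to 9 with 1 mouse left out.

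Signs reversed with total counts for Pln (0.0342), Trdn (0.196) and Letm1 (0.017), with the surrogate variable for Pln (0.0315), Slc8a1 (-0.0704), Cacna1c (0.116), Trdn (0.0351) and Camk2a (0.0074), and without ac-WT replicates 2 and 3 for Trdn (0.0577) and the ratio of Casq2 to Ryr2 (0.0525). With 1 mouse left out, values ran from -0.0302 to 0.11 for Ryr2, -0.0604 to 0.129 for Casq2 and -0.171 to 0.0287 for Trdn. Ratios ran from 0.15 to 0.31 for Pln to Atp2a2, 0.46 to 0.96 for Slc8a1 to Atp2a2, 0.46 to 0.78 for Ryr2 to Atp2a2, -0.114 to 0.0553 for Casq2 to Ryr2 and -0.44 to -0.23 for Jph2 to Ryr2. The first of these had a p under 0.05 without ac-CYB5R3-KO mouse 6 (exact permutation p 0.0281) and the second without ac-WT mouse 6 (0.0217). Ryr2 to Atp2a2 was 0.41 without ac-WT replicates 2 and 3 (exact permutation p 0.114). The causes of these shifts were not tested.

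Same-numbered mice of the groups are different animals. Their deviations correlated at -0.0962 to 0.357 (mean 0.144, against -0.0281 for other pairs), and 3 of 6 ac-WT hearts correlated best with their own number, a hint of pairing in the data that did not hold for every pair, so the numbers were not taken to pair the mice. With the replicate block, 2 genes had an adjusted p under 0.05, and exact sign flips over the 6 pairs gave p 0.0625 for Ryr2 to Atp2a2 (0.62) and for Jph2 to Ryr2 (-0.36). Depth limits Sln, Atp2b2, Ppp1r1a and Cacng6 (13 to 47 reads per library), which rest on few reads.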

Other observations

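Of the marker lists not described with the results, none of 8 endothelial and none of 8 leukocyte markers had an unadjusted p under 0.05 in edgeR. The 6 adipocyte markers were under 1 CPM in each heart and were not tested. The counts that follow are at the same threshold, at which 9.73% of all genes tested were lower and 4.91% higher. Of 7 smooth muscle markers, 5 were lower and 1, Cnn1, higher, and 6 of 10 atrial and 2 of 5 skeletal muscle markers were lower. Of 5 blood markers, 3 were higher, with a sum of 222 to 4487 CPM in ac-WT and 1323 to 12230 CPM in ac-CYB5R3-KO hearts. The airway markers Scgb1a1 (at most 1 read) and Foxj1 (at most 9) were not tested. Of 5 cartilage markers tested, 4 were higher (Col2a1, Acan, Comp and Col11a1), and the summed cartilage and airway list was 4.44 to 41.2 CPM in ac-WT and 59.2 to 129 CPM in ac-CYB5R3-KO hearts. Of the 9 genes in that list, 7 were under 1 CPM in every heart, with Col2a1 at most 0.958 and Acan at most 0.654 CPM. The sum in ac-CYB5R3-KO hearts was mostly Comp (37.0 to 95.8 CPM) and Col11a1 (21.2 to 36.5 CPM).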
